A study of Mus musculus with 8 samples.

Results

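The region described here is the stretch of mouse chromosome 14 from 4000001 to 8000000 (mm9 build, 1-based), close to the centromeric end of the chromosome. It was followed through 8 lists of positions protected from micrococcal nuclease (MNase), an enzyme that cuts DNA not covered by protein. A position was counted as a member when its summit lay in these 4 Mb. In H2A.L.2-less and WT spermatocytes 9203 of 4853610 and 10097 of 5306949 nucleosome positions on chromosomes 1 to 19 and X were members. In H2A.L.2-less and WT round spermatids the numbers were 9502 of 4747226 and 9766 of 5385833. In condensing spermatids 9915 of 3885201 nucleosome positions were members in the H2A.L.2-less list and 9829 of 3779744 in the WT list. Of the small structures of the same cells, 6349 of 4114547 were members in the H2A.L.2-less list and 9175 of 5371290 in the WT list.

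The cells were testis fractions enriched for spermatocytes, round spermatids or condensing spermatids, from mice without the histone variant H2A.L.2 and from WT mice. The sources used here give no strain, age, allele or number of animals, and the fractions were enriched, not pure. Only the condensing spermatids gave a second fragment class, of about 40 to 80 bp, which was separated from the nucleosome-sized fragments of about 130 to 170 bp by electrophoresis. There was 1 library for each stage, genotype and fragment class, sequenced in 3 runs to between 207000000 and 753000000 reads, and so no test between groups was possible. The region was chosen by the mean summit value of windows inside it, which differed between the genotypes before condensation and between WT round and condensing spermatids. Those differences are therefore given as a description, and no support is drawn from them.

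Spermatids replace nearly all of their histones, first with transition proteins and then with protamines, and the genome is compacted as they condense. H2A.L.2 is a testis-specific H2A variant that appears late, when transition proteins load. A nucleosome shields its DNA from MNase, so a summit of protected fragments marks a place where a nucleosome sits in many cells, and a higher summit marks more protected fragments. The proximal part of mouse chromosome 14 is known for long, nearly identical duplicated stretches, among them the copies of the takusan gene family, and reads from such stretches are hard to assign to 1 copy.

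Summits in the region were taller than elsewhere on the chromosome in all 6 nucleosome lists. The height of a summit is given here as its deposited value over the median value of its own list, because the lists share no common scale. The median height was 1.11 in H2A.L.2-less spermatocytes, with a 95% order-statistic interval of 1.09 to 1.11, and 1.31 in WT spermatocytes, with an interval of 1.29 to 1.31. It was 1.12 in H2A.L.2-less round spermatids and 1.27 in WT round spermatids. In condensing spermatids it was 1.21 for H2A.L.2-less and 1.18 for WT nucleosomes. WT spermatocytes and round spermatids thus held the highest medians. The rest of chromosome 14 had a median height of 1 in 5 of these lists and of 1.02 in H2A.L.2-less round spermatids. In each of the 6 lists the region lay above all 28 stretches of 4 Mb that tile the chromosome from 9000001 to 121000000. These intervals cover counting error only, and neighbouring summits are not independent.

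The small structures did not share this. Their median height in the region was 0.90 in H2A.L.2-less and 0.934 in WT condensing spermatids, and the rest of the chromosome had the same medians. Their upper tail did stand higher: 8.77% of H2A.L.2-less and 8.09% of WT small structures in the region reached 2 list medians, against 6.53% and 3.90% on the rest of the chromosome.

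The upper tail was also higher than elsewhere in the nucleosome lists, along with the median. In spermatocytes 8.03% of H2A.L.2-less and 20.9% of WT summits in the region reached 2 list medians, against 1.12% and 1.31% on the rest of the chromosome. In round spermatids the shares were 6.88% in H2A.L.2-less and 20.1% in WT cells, against 0.949% and 1.44% on the rest. In condensing spermatids they were 9.87% for H2A.L.2-less and 9.32% for WT nucleosomes, against 1.12% and 1.11%. The genotypes were far apart at the earlier stages and close together at the condensing stage. The 90th percentile of height was 1.86 in H2A.L.2-less and 2.62 in WT spermatocytes. It was 1.80 and 2.63 for H2A.L.2-less and WT round spermatids, and 1.98 and 1.94 in H2A.L.2-less and WT condensing spermatids. The 99th percentile showed the same order, with 3.29 in H2A.L.2-less and 5.69 in WT spermatocytes, and 3.64 in both lists of condensing nucleosomes.

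**Figure D1:**
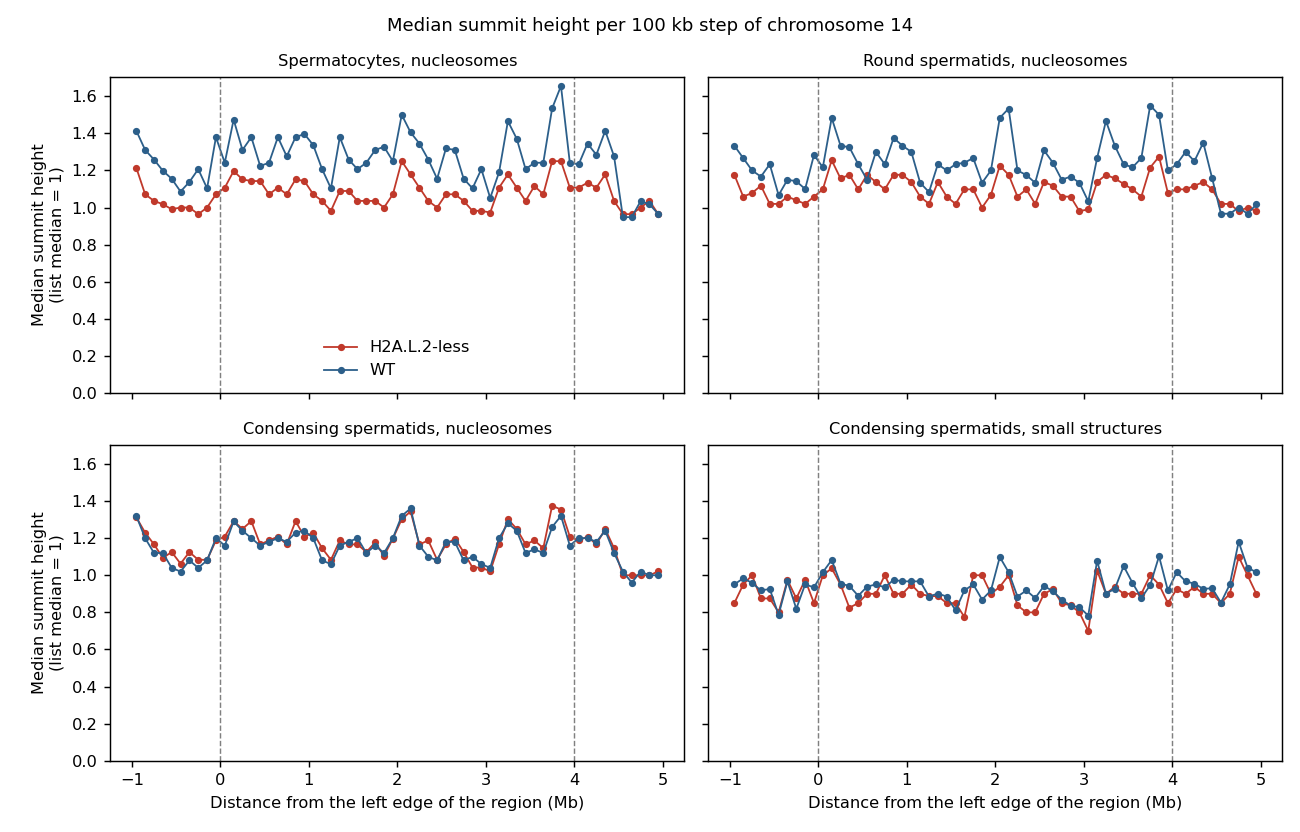
Median summit height (1 = median of the list) of each 100 kb step of chromosome 14, against the distance from the left edge of the region in Mb, for H2A.L.2-less (red) and WT (blue) cells in 4 panels. Dashed lines mark the region. In the top panels the WT line runs above the H2A.L.2-less line through the region and past both of its edges, except in 1 step of round spermatids, and in the panel of condensing nucleosomes the 2 lines lie on each other.

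Along the region, which holds 40 steps of 100 kb, the height ratio of H2A.L.2-less over WT was below 0 on the log2 scale in 40 of 40 steps of spermatocytes, from -0.41 to -0.10 with a median of -0.26. It was below -0.2 in 30 of 40 steps, and 1.02% of 1182 steps on the rest of the chromosome were that low. The 3 lowest steps were 5800001 to 5900000, with medians of 1 in H2A.L.2-less and 1.33 in WT cells, 7800001 to 7900000, with 1.25 and 1.66, and 5300001 to 5400000, with 1.09 and 1.38. The 3 steps with the smallest difference were 4400001 to 4500000, 7100001 to 7200000 and 7000001 to 7100000, with log2 ratios of -0.10, -0.10 and -0.11.

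In round spermatids 39 of 40 steps were below 0, from -0.38 to 0.03 with a median of -0.18. Here 14 of 40 steps were below -0.2, against 0.423% of 1181 steps on the rest of the chromosome. The lowest was 6100001 to 6200000, with a median height of 1.18 in H2A.L.2-less and 1.53 in WT cells, followed by 7700001 to 7800000 at -0.35 and 7200001 to 7300000 at -0.32. The single step above 0 was 4500001 to 4600000, with 1.18 in H2A.L.2-less and 1.15 in WT cells, and the next were 7000001 to 7100000 at -0.06 and 5200001 to 5300000 at -0.09. The 3 lowest steps were different ones at the 2 stages, and 7000001 to 7100000 was among the 3 highest at both. At the 90th percentile of height all 40 steps were below -0.2 both in spermatocytes, where 2.03% of the other steps were, and in round spermatids, where 6.69% were.

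In the nucleosomes of condensing spermatids none of the 40 steps was below -0.2, and 0% of 1180 steps elsewhere were. The steps ran from -0.08 in 6800001 to 6900000 to 0.13 in 7700001 to 7800000, with 13 below 0 and 27 above. Their median was 0.01, and that of the steps on the rest of the chromosome was 0.03. The others at the ends of the order started at 5500001 and 7100001, both at -0.04, and at 6300001 and 4300001, both at 0.11. The step starting at 7700001, highest here with 1.38 in H2A.L.2-less and 1.26 in WT cells, was the second lowest in round spermatids. At the 90th percentile none was below -0.2, against 0.424% elsewhere. In small structures 4 of 40 steps were below -0.2 by the median, where 1.28% of 1176 other steps were, and 1 of 40 was by the 90th percentile, where 1.53% were. The lowest of them was 5600001 to 5700000 with 0.775 in H2A.L.2-less and 0.918 in WT cells, and the highest was 5800001 to 5900000 with 1 and 0.869. The steps starting at 6000001 and 7400001 followed at the low end, at -0.23 and -0.22, and those starting at 4700001 and 7700001 at the high end, at 0.10 and 0.08.

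The region as a whole had a log2 height ratio of -0.24 in spermatocytes and -0.18 in round spermatids, where the 28 tiles of the chromosome lay between -0.02 and 0.05 and between -0.05 and 0.04. In condensing spermatids it was 0.03 for nucleosomes, within the tiles' range of -0.0025 to 0.06, and -0.05 for small structures, within -0.08 to 0.09. At the 90th percentile the values were -0.50 in spermatocytes and -0.55 in round spermatids, and 0.03 and 0.04 for the nucleosomes and small structures of condensing spermatids.

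**Figure D2:**
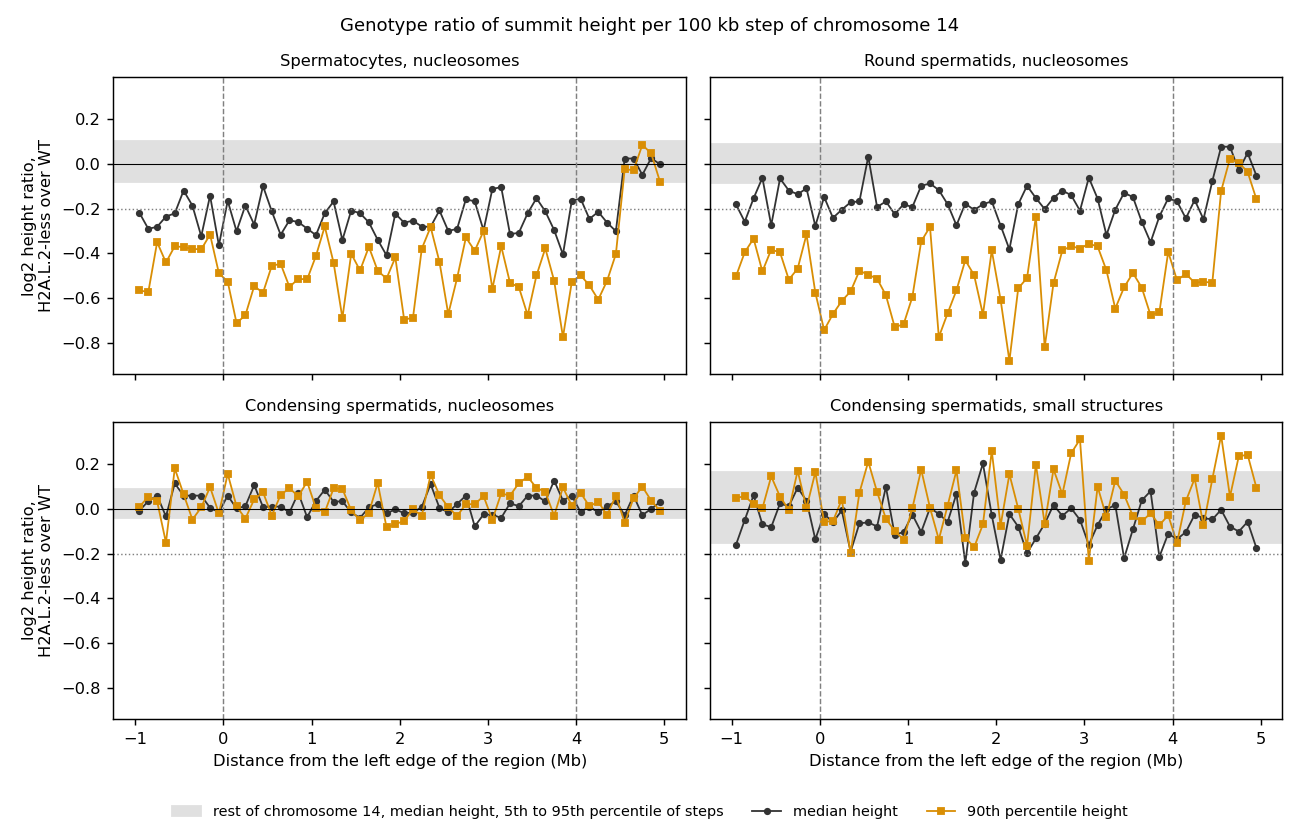
Log2 ratio of summit height, H2A.L.2-less over WT, per 100 kb step, for the median (dark circles) and the 90th percentile (orange squares), against the distance from the left edge of the region in Mb. The grey band is the 5th to 95th percentile of the median-height ratio over the steps of the rest of chromosome 14, and the dotted line is -0.2. The dark line stays below 0 in all 40 steps of spermatocytes and in 39 of 40 of round spermatids, and runs about 0 for condensing nucleosomes. For small structures 30 of 40 steps lie below 0, with a median of -0.06 against -0.02 on the rest of the chromosome.

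The edges of the region did not bound the pattern. Between 3 Mb, where the chromosome's positions begin, and 4 Mb the median height was 1.04 in H2A.L.2-less and 1.24 in WT spermatocytes. From 8 to 8.5 Mb it was 1.11 in H2A.L.2-less and 1.31 in WT spermatocytes, the same as inside. From 8.5 to 9.5 Mb it was 0.982 in H2A.L.2-less and 0.983 in WT spermatocytes. Of the steps below -0.2 on the rest of the chromosome, 11 of 12 in spermatocytes and 5 of 5 in round spermatids lay in the 15 steps from 3 to 4 Mb and from 8 to 8.5 Mb. All 15 of these steps were below 0 at both stages. The 3 just outside the left edge, starting at 3700001, 3800001 and 3900001, had -0.32, -0.14 and -0.36 in spermatocytes, and the 3 just outside the right edge, starting at 8000001, 8100001 and 8200001, had -0.16, -0.25 and -0.21. In the 5 steps from 8.5 to 9 Mb the ratios lay on both sides of 0.

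Places called in all 6 nucleosome lists were also compared, as a description, since their summit values are among those the region was chosen by. Of the 9829 WT condensing nucleosome summits in the region, 1224 had a summit within 40 bp in all 5 other nucleosome lists. At these shared places the median height was 1.46 in H2A.L.2-less and 2.10 in WT spermatocytes. Round spermatids had 1.49 without H2A.L.2 and 2.03 in the WT list. In condensing spermatids it was 1.59 for H2A.L.2-less and 1.58 for WT nucleosomes. The median log2 ratio was -0.56 in spermatocytes, with 87.5% of the summits below 0, and -0.53 in round spermatids, with 79.7% below 0. In condensing spermatids it was 0.03, with 48.0% below 0. Beyond 8.5 Mb 5655 of 161875 WT condensing summits were shared in the same way, a smaller share than in the region. Their median ratios were -0.02, -0.07 and 0.02 at the 3 stages. The region also held more positions per step, and no share after a shift was taken for the 6 lists. Whether the shares differ beyond that was therefore not tested. From 3 to 4 Mb 205 of 2122 were shared, with -0.51, -0.48 and 0.01.

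**Figure D3:**
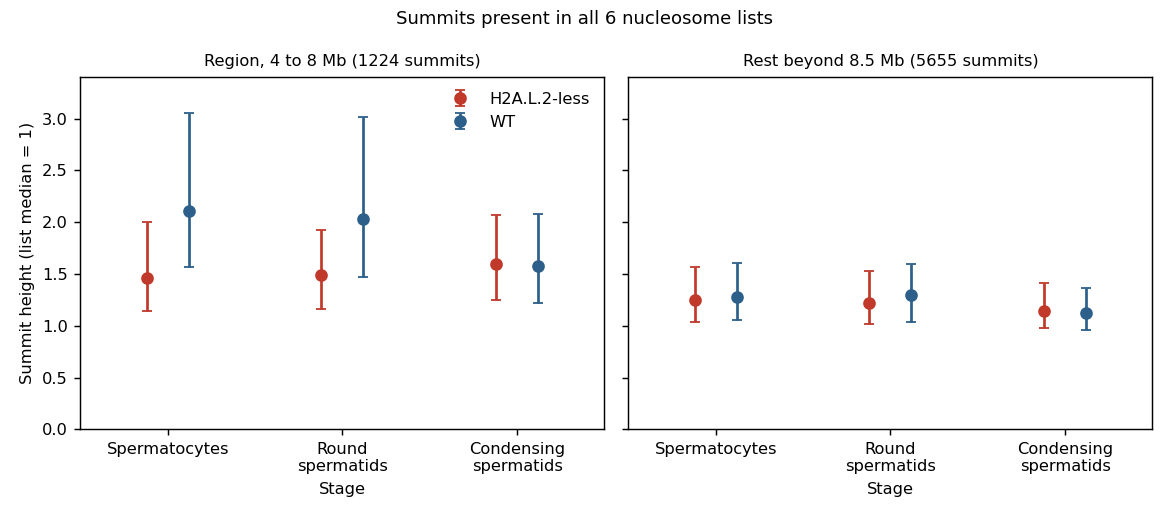
Height (1 = median of the list) of summits found in all 6 nucleosome lists, by stage, for H2A.L.2-less (red) and WT (blue) cells. Points are medians and bars run from the lower to the upper quartile over summits of 1 library. In the region the WT median is 2.10 in spermatocytes and 2.03 in round spermatids, against 1.46 and 1.49 in H2A.L.2-less cells. Beyond 8.5 Mb the 2 genotypes lie side by side.

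At all 3 stages the ratio was lower at places that were taller in WT condensing spermatids. The 1224 summits were divided into 4 groups of nearly equal size by that height. From the lowest to the highest group the log2 ratio in spermatocytes was -0.40, -0.50, -0.56 and -0.68. In round spermatids it was -0.41, -0.50, -0.56 and -0.73. In condensing nucleosomes, where the grouping height is itself the WT side of the ratio, it was 0.28, 0.06, -0.08 and -0.13. The height in WT condensing spermatids is part of what the region was chosen by, and a shared summit had to pass the calling floor of every list, which limits how low an H2A.L.2-less height can be at the shortest places. In the tallest group the median height was 2.29 in H2A.L.2-less and 3.71 in WT spermatocytes. Across the 40 steps the height in WT condensing nucleosomes had a Pearson r of -0.38 and a Spearman rho of -0.39 with the ratio in spermatocytes, and -0.67 and -0.68 with that in round spermatids. Steps share libraries and lie side by side, so these are descriptions. The profile itself was shared: the step heights of the 6 nucleosome lists correlated pairwise with r from 0.82 to 0.92.

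The tallest summit found in all 8 lists lay at 7469841, on a position from 7469771 to 7469911. Its height was 16.5 in H2A.L.2-less and 22.7 in WT spermatocytes. Round spermatids had 13.5 without H2A.L.2 and 23.4 in the WT list, and there were 19.3 in H2A.L.2-less and 18.1 in WT condensing nucleosomes, and 4.55 in H2A.L.2-less and 7.57 in WT small structures. The next 4 by summed height were at 4256311, 7836981, 6192981 and 4138531. At 4138531 the heights were 3.89 in H2A.L.2-less and 7.83 in WT spermatocytes, then 3.33 and 7.67 for H2A.L.2-less and WT round spermatids, and 4.75 and 3.76 in H2A.L.2-less and WT condensing nucleosomes. The ranking sum includes the WT heights of the earlier stages, and the genotype order was not counted over all 403 summits found in the 8 lists. All 5 summits were lower in both H2A.L.2-less lists of the earlier stages. At 7836981 and 6192981 they were also lower in H2A.L.2-less condensing nucleosomes, with 6 against 6.82 and 4.75 against 5.36, and at 4256311 with 4.46 against 4.66.

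From round to condensing spermatids the heights moved in opposite directions in the 2 genotypes, a difference that could not be tested. In WT cells the log2 height ratio of the region was -0.05 for round spermatids over spermatocytes and -0.10 for condensing over round spermatid nucleosomes. In H2A.L.2-less cells the ratios were 0.01 and 0.11. At the 1224 shared summits the step from round to condensing spermatids was 0.09 in H2A.L.2-less and -0.42 in WT cells, where the summits beyond 8.5 Mb had -0.05 and -0.14. At the 90th percentile, 0 of 40 steps were below -0.2 for WT round spermatids over spermatocytes, against 0.0846% of other steps. For WT condensing over round spermatids 40 of 40 were, but 44.2% of the other steps were as low. The upper tail was thus lower in WT condensing than in WT round spermatids over much of the chromosome, with a log2 ratio of -0.44 in the region and -0.27 to 0.05 in the tiles.

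The region held more positions per step than the median of the rest of the chromosome in every list, though several tiles were denser. The median count per 100 kb step was 257 in H2A.L.2-less and 264 in WT spermatocytes. Round spermatids had 261.5 without H2A.L.2 and 257.5 in the WT list. It was 272 for H2A.L.2-less and 267 for WT condensing nucleosomes, and 164.5 and 241.5 for H2A.L.2-less and WT small structures. Over the median step of the rest of the chromosome, this was 1.37 and 1.31 times in H2A.L.2-less and WT spermatocytes, 1.35 and 1.27 times in H2A.L.2-less and WT round spermatids, 1.89 and 1.91 times for H2A.L.2-less and WT condensing nucleosomes, and 1.43 times for both lists of small structures. Condensing nucleosomes thus held the largest excess in either genotype. Of the 28 tiles, 7 and 6 were denser than the region in H2A.L.2-less and WT spermatocytes, 1 and 8 in H2A.L.2-less and WT round spermatids, 1 and 0 in H2A.L.2-less and WT condensing nucleosomes, and 12 and 11 in H2A.L.2-less and WT small structures. A list records a position only above a calling floor, so counts depend on depth as well as on protection.

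Density differed little between the genotypes. None of the 40 steps was beyond a log2 ratio of 0.5 in either direction at any stage or fragment class, with positions counted as a share of their list. On the rest of the chromosome 0.338% of steps were beyond it in spermatocytes and 14.1% in round spermatids, and 0.508% for condensing nucleosomes and 0.765% for small structures. In spermatocytes the steps of the region ran from -0.38 at 5500001 to 5600000, with 105 H2A.L.2-less and 149 WT positions, to 0.21 at 5300001 to 5400000, with 234 and 221. The next lowest were those starting at 5600001 and 6700001, at -0.31 and -0.24, and the next highest those starting at 4400001 and 4300001, at 0.20 and 0.17. In round spermatids they ran from -0.32 at 5800001 to 5900000, with 58 H2A.L.2-less and 82 WT positions, to 0.41 at 7600001 to 7700000, with 253 and 216. The steps starting at 5200001 and 7000001 followed at the low end, at -0.28 and -0.25, and those starting at 4300001 and 7300001 at the high end, at 0.35 and 0.33. The step starting at 4300001 was thus among the 3 highest at both stages. For condensing nucleosomes the 3 lowest started at 6300001, 5600001 and 6100001, at -0.16, -0.16 and -0.14, and the 3 highest at 7000001, 6900001 and 6800001, at 0.24, 0.22 and 0.13. For small structures 7000001 to 7100000 was lowest at -0.36, with 61 H2A.L.2-less and 102 WT positions, ahead of the steps starting at 6400001 and 6900001, and 6000001 to 6100000 was highest at 0.07, ahead of those starting at 5800001 and 4900001. The ratio of the whole region was -0.0049 in spermatocytes and 0.14 in round spermatids, and -0.03 for condensing nucleosomes and -0.15 for small structures. The last became 0.02 when counts were scaled to the median step of the rest of the chromosome.

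Within a genotype the share of a list's positions that fell in the region grew between round and condensing spermatids. The log2 density ratio of condensing over round spermatid nucleosomes was 0.35 in H2A.L.2-less and 0.52 in WT cells. In H2A.L.2-less cells 2 of 40 steps were above 0.5, against 2.37% of other steps, and in WT cells 21 of 40 were, against 3.9%. The tiles of the chromosome ran from -0.88 to 0.27 in H2A.L.2-less and from -0.55 to 0.55 in WT cells, so 1 or more other WT tiles gained as much. The number of positions in the region hardly moved, at 1.04 times in H2A.L.2-less and 1.01 times in WT cells, while the whole lists were 0.818 and 0.702 times as long.

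**Figure D4:**
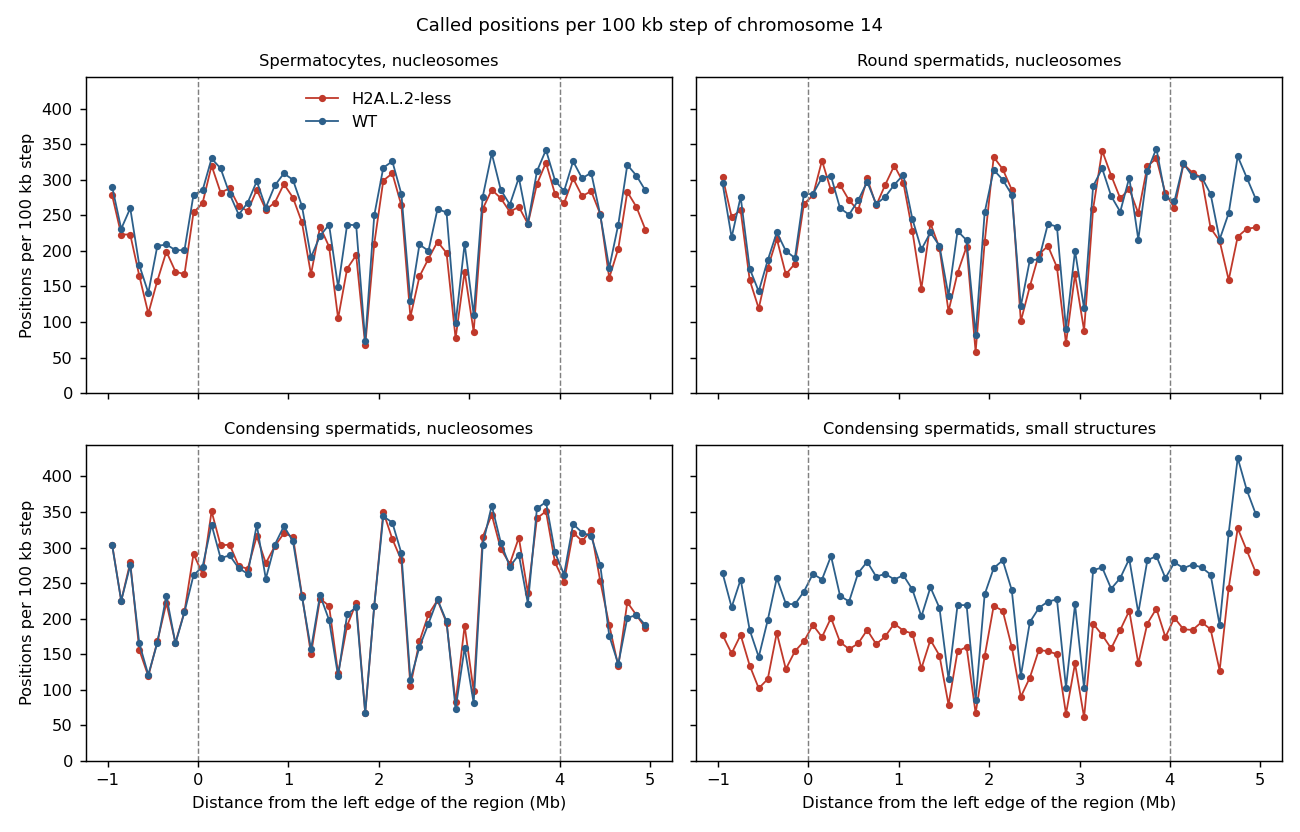
Number of called positions in each 100 kb step of chromosome 14, against the distance from the left edge of the region in Mb, for H2A.L.2-less (red) and WT (blue) cells. The dips recur at the same steps in all 4 panels, and 7 of 8 lists have their lowest step in the same place.

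The dips were common to all lists. The step with the fewest positions was 5800001 to 5900000 in 7 of 8 lists, with 67 and 73 positions in H2A.L.2-less and WT spermatocytes, and 7000001 to 7100000 in H2A.L.2-less small structures, with 61. The step with the most was 7800001 to 7900000 in H2A.L.2-less and WT spermatocytes, WT round spermatids and WT condensing nucleosomes, with 324, 342, 344 and 364 positions. It was 7200001 to 7300000 in H2A.L.2-less round spermatids, 4100001 to 4200000 in H2A.L.2-less condensing nucleosomes, and 6000001 to 6100000 and 4200001 to 4300000 in H2A.L.2-less and WT small structures. In 5 places no summit of any list was found over about 50 kb: after 5557102, 5827802, 6303642, 6841132 and 7058812 the next summit lay 50710, 50520, 50250, 51090 and 50280 bp further on. Together they made up 6.32% of the region, and the next longest empty stretch was 3660 bp. The mm9 sequence was not used here, so whether these places are gaps in the assembly was not tested.

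The share of positions found again in the other genotype was higher in the region than on the rest of the chromosome in the 3 nucleosome pairs, and so was the share found after 1 list was moved. In spermatocytes 58.2% of WT summits had an H2A.L.2-less summit within 40 bp, with a Wilson interval of 57.3% to 59.2%, and 22.7% did after 1 list was moved by 5000 bp. On the rest of the chromosome 52.4% were matched, and the tiles ran up to 59.3%. Taken the other way round, 63.9% of H2A.L.2-less summits had a WT summit, and the tiles ran up to 58.9%. In round spermatids 55.0% were matched in the region and 45.0% on the rest, and the tiles ran up to 53.3%. In condensing nucleosomes 51.1% were matched in the region, above all 28 tiles, which ran from 21.0% to 42.8%, and 30.8% on the rest. The share after the shift was 24.9% in the region and 16.0% on the rest. The share before the shift over that after it was 2.56 in the region and 2.76 on the rest for spermatocytes, 2.39 and 2.43 for round spermatids, and 2.05 and 1.92 for condensing nucleosomes, where the tiles ran from 1.57 to 4.65. By this ratio the region did not stand above the tiles. In small structures 54.2% were matched in the region and 55.3% on the rest.

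Neighbouring nucleosomes were spaced less regularly than in the tiles in spermatocytes and round spermatids. Regularity was read from the distances between summits, as the height of the second-neighbour peak over the trough before it. In spermatocytes it was 1.47 in H2A.L.2-less and 1.24 in WT cells, and in round spermatids 1.52 in H2A.L.2-less and 1.34 in WT cells. All 28 tiles were higher in these 4 lists, and the lowest of them were 1.58 and 1.54 in H2A.L.2-less and WT spermatocytes and 1.80 and 1.53 in H2A.L.2-less and WT round spermatids. The flanks had values of the same order: 1.25 and 1.32 in H2A.L.2-less and WT spermatocytes from 3 to 4 Mb, and 1.66 and 1.21 in H2A.L.2-less and WT round spermatids from 8 to 8.5 Mb. In condensing nucleosomes the values were 1.06 in H2A.L.2-less and 1.05 in WT cells. The rest of the chromosome had 1.03 in both, but the medians of the tiles were 1.09 in H2A.L.2-less and 1.10 in WT cells. In H2A.L.2-less cells 22 of the 28 tiles were higher than the region and 6 were lower, and in WT cells 24 were higher and 4 lower. The median distance between neighbours up to 1000 bp apart was 240 to 270 bp over the 8 lists. The median fuzziness score, the authors' measure of how widely fragments scatter about a position, was 53.6 in H2A.L.2-less and 53.1 in WT spermatocytes. Round spermatids had 53.7 in the H2A.L.2-less and 52.9 in the WT list. It was 54.9 in both lists of condensing nucleosomes, and 48.5 and 50.7 in H2A.L.2-less and WT small structures. Of the 28 tiles, 25 were lower in H2A.L.2-less and 15 in WT spermatocytes, and 27 and 13 in H2A.L.2-less and WT round spermatids. For condensing nucleosomes 27 tiles were lower in either genotype. For small structures 13 were lower in H2A.L.2-less and 7 in WT cells.

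Relative to their own lists, small structures of the region were sparser and lower than nucleosomes of the same cells. The deposited values themselves cannot be set side by side, since the list medians were 160 and 488 for H2A.L.2-less and WT small structures and 192 and 200 for H2A.L.2-less and WT condensing nucleosomes. The log2 height ratio of small structures over condensing nucleosomes was -0.43 in H2A.L.2-less and -0.34 in WT cells. The tiles ran from -0.32 to 0.04 in H2A.L.2-less and from -0.35 to 0.14 in WT cells, so the region lay below all tiles in H2A.L.2-less cells and inside the range in WT cells. The log2 density ratio was -0.73 in H2A.L.2-less and -0.61 in WT cells, and the tiles ran down to -0.88 and -0.74.

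The pattern of summits repeated itself within the region. Each block of 20 kb with at least 60 summits per genotype was slid along the region in both orientations, and its best partner was sought separately in the 4 H2A.L.2-less and the 4 WT lists. The partner was the same within 60 bp in both genotypes for 61 of 187 blocks, or 32.6%, and 38 of these ran in the same orientation and 23 were inverted. The 28 tiles had 0 to 22 such blocks, with a median of 1, and the tile with 22 was 41000001 to 45000000, at 11.3% of its blocks. Without the small structures, and with the minimum set to 45 summits per genotype, 25 of 186 blocks agreed in the region, or 13.4%, 23 of them among the 61, against 0 to 10 in the tiles. In both forms the region stood above every tile.

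**Figure D5:**
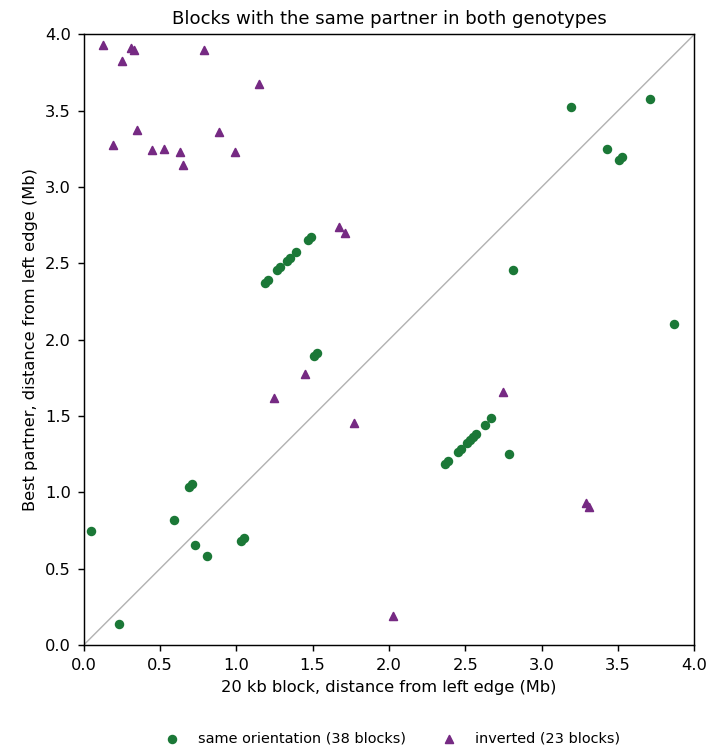
Position of each 20 kb block whose best partner was the same in H2A.L.2-less and WT lists, against the position of that partner, both as distance from the left edge of the region in Mb. Circles ran in the same orientation (38 blocks) and triangles were inverted (23 blocks). The longest line of circles, seen on both sides of the diagonal, is the series of 19 blocks, and most triangles pair the left end of the region with the right end.

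The longest such series was 19 blocks whose partners lay 1185040 to 1185280 bp away. It joined 9 blocks between 5180001 and 5500000 with the stretch from 6360001 to 6680000, where 10 blocks pointed back. Other blocks inside these stretches were not part of it. Among them was 5240001 to 5260000, whose partner started at 5610601 and was inverted. At the distance of the series a median of 45.1% of the summits of a block were met in the H2A.L.2-less lists and 57.2% in the WT lists. Each share is the highest over all distances and both orientations, and no level for unrelated blocks is given beside it. A series of 4 blocks had partners at 344960 bp and 1 of 3 blocks at 332180 to 332220 bp. Of the inverted pairs, 4640001 to 4660000 met 7135721 to 7155720 and 4120001 to 4140000 met 7920121 to 7940120. At the level of the whole region, the highest autocorrelation of the summits at any distance from 5 kb to 1 Mb was 1.53 to 1.87 times its mean over the 8 lists, with bins of 10 bp, and in each list 1 or more tiles were higher. These maxima lay at distances of 8150 to 20270 bp, not at those of the block series. The measure covered 1 orientation and stopped at 1 Mb, so it could not show the series of 19 blocks or the inverted pairs. With bins of 50 bp the region lay above all 28 tiles in both earlier H2A.L.2-less lists, at 1.44 in each, and with summit values capped at the 99th percentile in H2A.L.2-less round spermatids, at 1.75.

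The tile from 41000001 to 45000000 had the highest share of tall summits in spermatocytes among the tiles, and the highest count of blocks with the same partner. Its 90th percentile of height was 1.89 in H2A.L.2-less and 1.86 in WT spermatocytes, and 1.92 and 1.90 in H2A.L.2-less and WT condensing nucleosomes, and in spermatocytes 8.49% of its H2A.L.2-less and 8.20% of its WT summits reached 2 list medians. In round spermatids 8.10% of its H2A.L.2-less and 7.85% of its WT summits did. Between genotypes its log2 height ratios were 0.03 and 0.04 for spermatocytes and round spermatids, and 0.0064 for condensing nucleosomes. By this share the tile thus stood above the region in H2A.L.2-less spermatocytes and round spermatids, where the region had 8.03% and 6.88%. In H2A.L.2-less condensing nucleosomes it stood below the region, with 9.03% against 9.87%. In WT spermatocytes and round spermatids it stood below the region, which had 20.9% and 20.1%. This tile was picked after its values were seen.

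The comparison regions on other chromosomes showed ratios of median height closer to 0 before condensation. On chromosome 13 from 65 to 67 Mb the median height was 1.21 in H2A.L.2-less and 1.29 in WT spermatocytes, with log2 ratios of -0.09 for spermatocytes, -0.06 for round spermatids and 0.12 for condensing nucleosomes. Its share of spermatocyte summits at 2 list medians or more was 18.8% in H2A.L.2-less and 24.9% in WT cells, both above the shares of the chromosome 14 region. Its upper tail was also lower in H2A.L.2-less cells before condensation. The 90th percentile of height was 2.54 in H2A.L.2-less and 3.14 in WT spermatocytes, and 2.51 and 3.13 in round spermatids. In condensing nucleosomes it was 3.10 and 2.76. The spermatocytes had 1.68 and 1.66 on chromosome 7 from 7 to 11 Mb, and 1.32 and 1.28 from 32 to 34 Mb. On chromosome 7 from 7 to 11 Mb the ratios were 0.03, 0.06 and -0.10 in the same order. On chromosome 7 from 32 to 34 Mb the log2 height ratios were 0.11, 0.13 and 0.06, and the log2 density ratios were 1.01, 1.01 and -0.05.

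Gene names could be compared with the region only by chromosome. In RefSeq genes of GRCm38.p6, a later build whose coordinates were not used, chromosome 14 lists 2610042L04Rik, whose synonym is takusan, between Gm3138 and Gm3159. Which genes fall in a given step of mm9 was not determined.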

How the data were processed

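MNase-protected positions were read from 8 deposited lists, 1 per library, in mm9 coordinates. Bowtie2 2.2.9 and deepTools 2.2.4 are named in the submitters' processing notes, and the settings of the position caller, and how reads with several matches were handled, are not given in the sources used here. Each deposited position carries a summit value, called the summit signal here, and a fuzziness score, per the file headers. The summit signal has no stated common scale. In every list it was a multiple of 4, so heights move in small steps and narrow intervals can span only 1 of them. Summit signals were divided by the median of their list over chromosomes 1 to 19 and X. Positions were counted in 100 kb steps with at least 20 positions in each list compared. Limits were 0.2 for log2 height and 0.5 for log2 density ratios. Positions matched within 40 bp. The lowest percentile of the summit signal was 172 in both spermatocyte lists, but 96 in H2A.L.2-less and 272 in WT small structures, so counts depend on where a list begins. With 1 library per group there is no test, and intervals cover counting error only. Steps named are the 3 highest and 3 lowest per genotype comparison. The members, lists and limits were chosen with earlier results of these data known. The 90th percentile of steps, shared summits, block partners and the tile from 41000001 to 45000000 were added after values were seen. The computations were tested on simulated data and run in Python 3.11.15 with numpy 2.4.6, pandas 2.3.3, scipy 1.17.1 and matplotlib 3.10.9. Sequences of the region were not used here.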

Additional observations from a re-analysis of the deposited data

Results flagged for a closer look

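Several effects pointed in opposite directions in 2 stages, fragment classes or genotypes. None of these differences was tested, since each rests on 1 library per group, and those of the height ratio at the earlier stages are of the kind the region was chosen on. The log2 height ratio of H2A.L.2-less over WT was lower in spermatocytes than in condensing nucleosomes by a difference of -0.277, and in round spermatids than in condensing nucleosomes by -0.215. It was higher in condensing nucleosomes than in small structures by 0.0884.

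Between stages, the log2 height ratio in H2A.L.2-less cells less that in WT cells was 0.0625 for round spermatids over spermatocytes, 0.215 for condensing over round spermatids and 0.277 for condensing spermatids over spermatocytes. For density, the genotype ratio in spermatocytes less that in round spermatids was -0.147. The ratio in round spermatids less that in condensing nucleosomes was 0.170, and less that in small structures 0.289. The density ratio of round spermatids over spermatocytes was higher in H2A.L.2-less than in WT cells by 0.147.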

How the results depend on the processing

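A direction was counted as reversed only for a log2 ratio beyond the limit set for it, and none of those ratios was reversed. The remaining alternatives could not be counted as reversed. Among them the sign changed for small structures, in height by the 90th percentile and in density scaled to the rest of the chromosome. It also changed for the shared summits of condensing nucleosomes when matched within 20 bp. Of the 248 alternative values, 148 moved by less than their interval, or stayed within 1.5 times for a count, and 100 moved further. The 4 alternatives chosen after seeing the data are a match within 20 bp for shared summits, WT spermatocyte summits as their starting list, block partners without small structures and blocks of 40 kb. No library could be left out, and no paired analysis was possible because each group has 1 library. Step size and the minimum of positions do not enter the median height of the region. Heights rest on the list median, and the calling floor of each list limits all counts. Values that moved follow, in the order spermatocytes, round spermatids, condensing nucleosomes and small structures where several stages are given.

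With the mean in place of the median, the height was 1.26, 1.26, 1.36 and 1.12 in H2A.L.2-less and 1.60, 1.57, 1.34 and 1.12 in WT lists. With the 90th percentile it was 1.86, 1.80, 1.98 and 1.90 in H2A.L.2-less and 2.62, 2.63, 1.94 and 1.84 in WT lists. Without positions under the lower quartile of each list it was 1.18 for H2A.L.2-less condensing nucleosomes, 0.909 for H2A.L.2-less small structures, 1.32 for WT spermatocytes and 0.958 for WT small structures. With 3779744 positions kept in each of the 8 lists (equal numbers) it was 1.18 and 0.905 for H2A.L.2-less condensing nucleosomes and small structures and 0.959 for WT small structures. Over the median of the rest of chromosome 14 it was 1.10 for H2A.L.2-less round spermatids and 1 for both lists of small structures.

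Density over the rest of the chromosome, without positions under the lower quartile, was 1.46, 1.51, 2.07 and 1.55 in H2A.L.2-less and 1.51, 1.43, 2.27 and 1.58 in WT lists. With equal numbers it was 1.47 and 1.48 in H2A.L.2-less spermatocytes and round spermatids, and 1.57, 1.51 and 1.66 in WT spermatocytes, round spermatids and small structures. In steps of 50 kb it was 1.35 in WT spermatocytes and 1.31 in WT round spermatids. In steps of 200 kb it was 1.85 in H2A.L.2-less and 1.87 in WT condensing nucleosomes, and 1.39 in WT small structures. With at least 50 positions per step it was 1.82 and 1.13 in H2A.L.2-less and 1.84 and 1.26 in WT condensing nucleosomes and small structures.

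The log2 height ratio between genotypes by the mean was -0.34 in spermatocytes, -0.32 in round spermatids and -0.0043 in small structures, and by the 90th percentile -0.50, -0.55 and 0.043. In small structures it was -0.085 with equal numbers and 0 over the rest of the chromosome. The share of steps below -0.2 in round spermatids was 87.5% by the mean and 100% by the 90th percentile. In small structures it was 0% in steps of 200 kb, by the mean, without positions under the lower quartile and over the rest of the chromosome, and 2.5% by the 90th percentile. The share of steps beyond a log2 density ratio of 0.5 was 2.5% in spermatocytes and in round spermatids, both without positions under the lower quartile and with equal numbers, and in steps of 50 kb it was 1.27% in round spermatids and 1.28% in small structures. The log2 density ratio without positions under the lower quartile was -0.10 in spermatocytes and -0.081 in condensing nucleosomes. With equal numbers it was -0.15 in spermatocytes, 0.026 in round spermatids and -0.081 in small structures. Scaled to the rest of the chromosome it was 0.037 in round spermatids and 0.024 in small structures, the second of which had the other sign before scaling.

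The share of matched positions was 43.0%, 39.7%, 35.1% and 45.5% within 20 bp and 71.5%, 68.1%, 67.2% and 59.9% within 73 bp. Among positions at or above the list median it was 52.7% in spermatocytes, 50.7% in round spermatids and 49.6% in small structures, and as a share of H2A.L.2-less positions 63.9%, 56.5% and 78.3%. Median gaps of any length were 280 bp in H2A.L.2-less spermatocytes, 270 bp in both round spermatid lists, 260 bp in both lists of condensing nucleosomes, and 330 and 260 bp in H2A.L.2-less and WT small structures. The shared summits of condensing nucleosomes had a log2 ratio of -0.031 when matched within 20 bp. The share of blocks with 1 partner in both genotypes was 13.4% without small structures, where the minimum of summits was also lowered to 45, and 55.3% with blocks of 40 kb.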
